A study of Columba livia with 16 samples.

Results

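The locus described here is the stretch of scaffold 79 from 6.2 to 7.5 Mb, numbered as in the deposited peak lists, which holds *Pitx1* and *H2afy*. Its members are the H3K27ac peaks that overlap it by at least 1 bp: 200 of the 73059 peaks in all 4 lists. They are 63 peaks in the racing homer hindlimb, 43 in the racing homer forelimb, 61 in the Indian fantail hindlimb and 33 in the Indian fantail forelimb. The lists come from ChIP-seq of whole limb buds of pigeon embryos (*Columba livia*) at HH25. The racing homer is a scale-footed breed, and the Indian fantail is a muffed breed, with feathered feet, in which the study describes a deletion upstream of *Pitx1*. For each breed and limb, 2 ChIP libraries were made with an antibody against H3K27ac and 2 control libraries from input chromatin. The number of embryos behind a library is not given in the sources used here. The authors deposited a single list per breed and limb, so each value below stands for both replicates together, has no error between replicates, and could not be tested. The depth of the libraries is unknown. A limb bud holds many cell types, so fewer cells with the mark and less of the mark per cell cannot be told apart.

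H3K27ac is an acetylation of histone H3 that marks active enhancers and promoters. *Pitx1* encodes a homeodomain transcription factor that in vertebrate embryos is made in the hindlimb bud and not in the forelimb bud, and helps to set hindlimb identity. *H2afy* encodes macroH2A, a histone H2A variant with a large extra domain, which is made in many tissues. In the mouse, enhancers that act on *Pitx1* can lie far from the gene and beyond its neighbours, so the nearest gene to an acetylated region is not always the one it acts on.

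By the study's map, *H2afy* lies between the deletion and *Pitx1*, which is near the upper end of the window from 6.7 to 7 Mb. No annotation of the assembly that the lists are numbered on was used here, so no peak is assigned to an exon, intron or promoter. In the RefSeq gene table of another racing homer assembly, used for gene order only, *PITX1* lies between LOC102091124, followed by *NEUROG1*, on one side and *PCBD2* on the other. *TGFBI* and *SMAD5*, for which the study also designed expression primers, lie on the *NEUROG1* side, 8 and 9 protein-coding genes away. The symbol *H2afy* has 0 matches in that table. A search by symbol cannot show that the gene is absent, so its place in this order is unknown.

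The oligonucleotides that define the deletion and the transcripts of both genes are shown because they are the sequences by which the study recognised them. A forward primer lies 5′ of the deletion. It was combined with a reverse primer inside the deletion, or with a reverse primer in sequence found in the feathered allele alone. All are written whole, 5′ to 3′, and no base is singled out.
Deletion, forward, 5′ of the deletion: acagaaaacaaaaccggca
Deletion, reverse, within the deletion: ctgacaggcaccatgacaat
Deletion, reverse, feathered allele: tataaatgcacgccatctcg
*Pitx1* transcript, first primer: cgtttggaccaacctcacc
*Pitx1* transcript, second primer: acaggtccatctgctggttc
*H2afy* transcript, first primer: ccttcaattggtagtggcaga
*H2afy* transcript, second primer: gaagaggacattgttgacacaaa
The deletion primers are 19 or 20 nt long. Their positions on the scaffold were not determined, because no genome sequence was used here.

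In both breeds, far more of the locus was acetylated in the hindlimb than in the forelimb. Peaks covered 182 kb of the locus in the racing homer hindlimb and 82.4 kb in the racing homer forelimb, a difference of 100.0 kb. Indian fantail peaks covered 169 kb in the hindlimb and 77.3 kb in the forelimb, a difference of 92.2 kb. The hindlimb lists are also the longer lists over the whole genome, so the ratios have to be read against that. The hindlimb covered 2.21 times as much of the locus as the forelimb in the racing homer, against 1.22 times over all scaffolds. The Indian fantail ratios were 2.19 in the locus and 1.46 over all scaffolds. With the 15357 highest-scoring peaks of every list, the number in the smallest, the covered lengths were 170 kb against 78.4 kb in the racing homer and 154 kb against 77.3 kb in the Indian fantail.

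**Figure D1:**
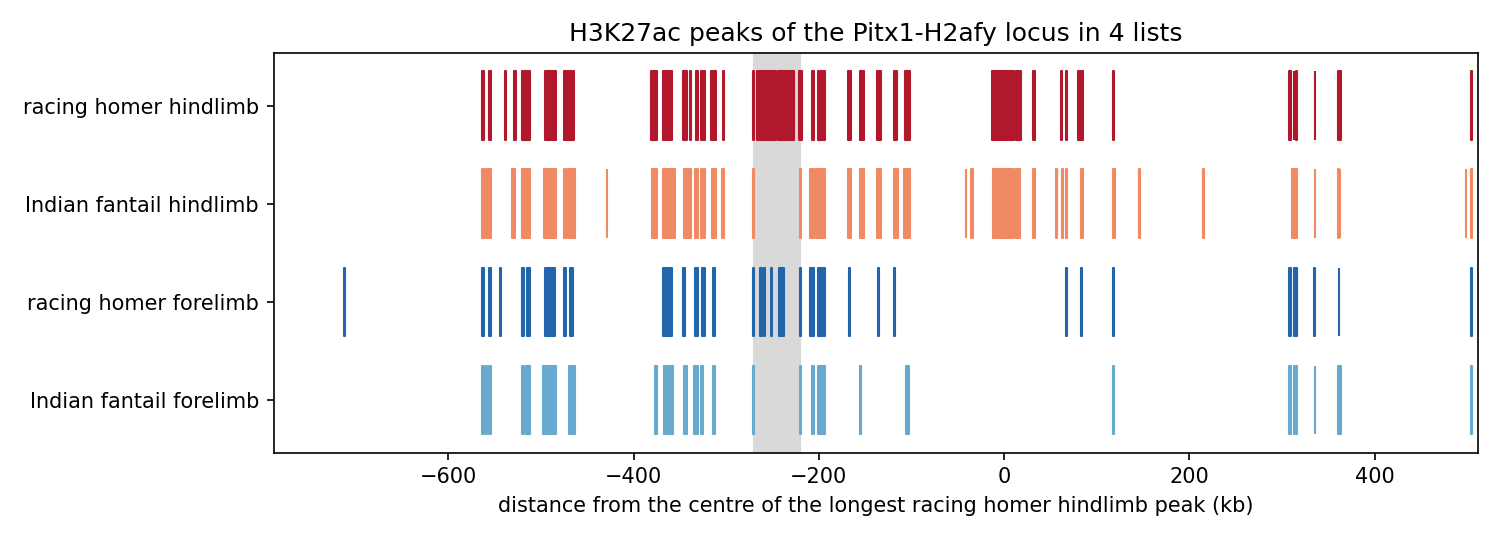
Peaks of the 4 lists along the locus, each drawn to scale at its distance in kb from the centre of the longest racing homer hindlimb peak; grey marks the stretch of 49.1 kb without Indian fantail peaks. Both hindlimb lists hold a peak of about 20 kb at position 0, where the forelimb lists hold none.

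The number of peaks without a counterpart in the other limb was less marked than the covered length. Of the 63 racing homer hindlimb peaks, 26 overlapped no racing homer forelimb peak (41.3%, 95% Wilson interval 30.0–53.6%), against 32.0% of that whole list. Of the 61 Indian fantail hindlimb peaks, 31 overlapped no Indian fantail forelimb peak (50.8%, 38.6–62.9%), against 41.9% of the whole list. In both breeds the share over the whole list lay inside the interval of the locus, and these intervals cover counting error only. Peaks found in the forelimb and not in the hindlimb of the same breed numbered 4 of 43 in the racing homer (9.30%, 3.68–21.6%), against 20.0% of the list. In the Indian fantail they numbered 1 of 33 (3.03%, 0.537–15.3%), against 12.6%. Here too the share over the whole list lay inside the interval in both breeds. The peaks differed in width too: their median in the locus was 2023 bp in the racing homer hindlimb and 1428 bp in its forelimb, and 1693 bp and 1601 bp in the Indian fantail. Over the whole lists the medians were 1596 and 1486 bp for the racing homer, and 1644 and 1703 bp for the Indian fantail, where the forelimb had the wider peaks.

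The locus was then divided into 26 bins of 50 kb, of which 21 hold a peak of some list and 5 hold none. A bin was called higher in a list when the covered length there was at least 2 times that of the other list and at least 5 kb larger. In the racing homer, 5 of the 21 bins were called higher in the hindlimb, where 1.42% of the 11352 bins with a peak over all scaffolds were so called. The Indian fantail also had 5 of 21 bins called, where 4.03% were called over all scaffolds. Its count fell to 2 when the bins were shifted by 25 kb. With a ratio of 1.5, 9 racing homer bins were called. For neither of these settings was the share of all bins computed, so both counts have no background. Bins called higher in the forelimb numbered 0 in both breeds, with 0.449% of all bins in the racing homer and 0.317% for the Indian fantail. In 4 of the 21 bins the hindlimb was called higher in both breeds, against 0.731% of all bins. These bins lie next to each other in pairs, from 6.8 to 6.9 Mb and from 6.95 to 7.05 Mb, and a single acetylated domain can reach across a bin border.

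**Figure D2:**
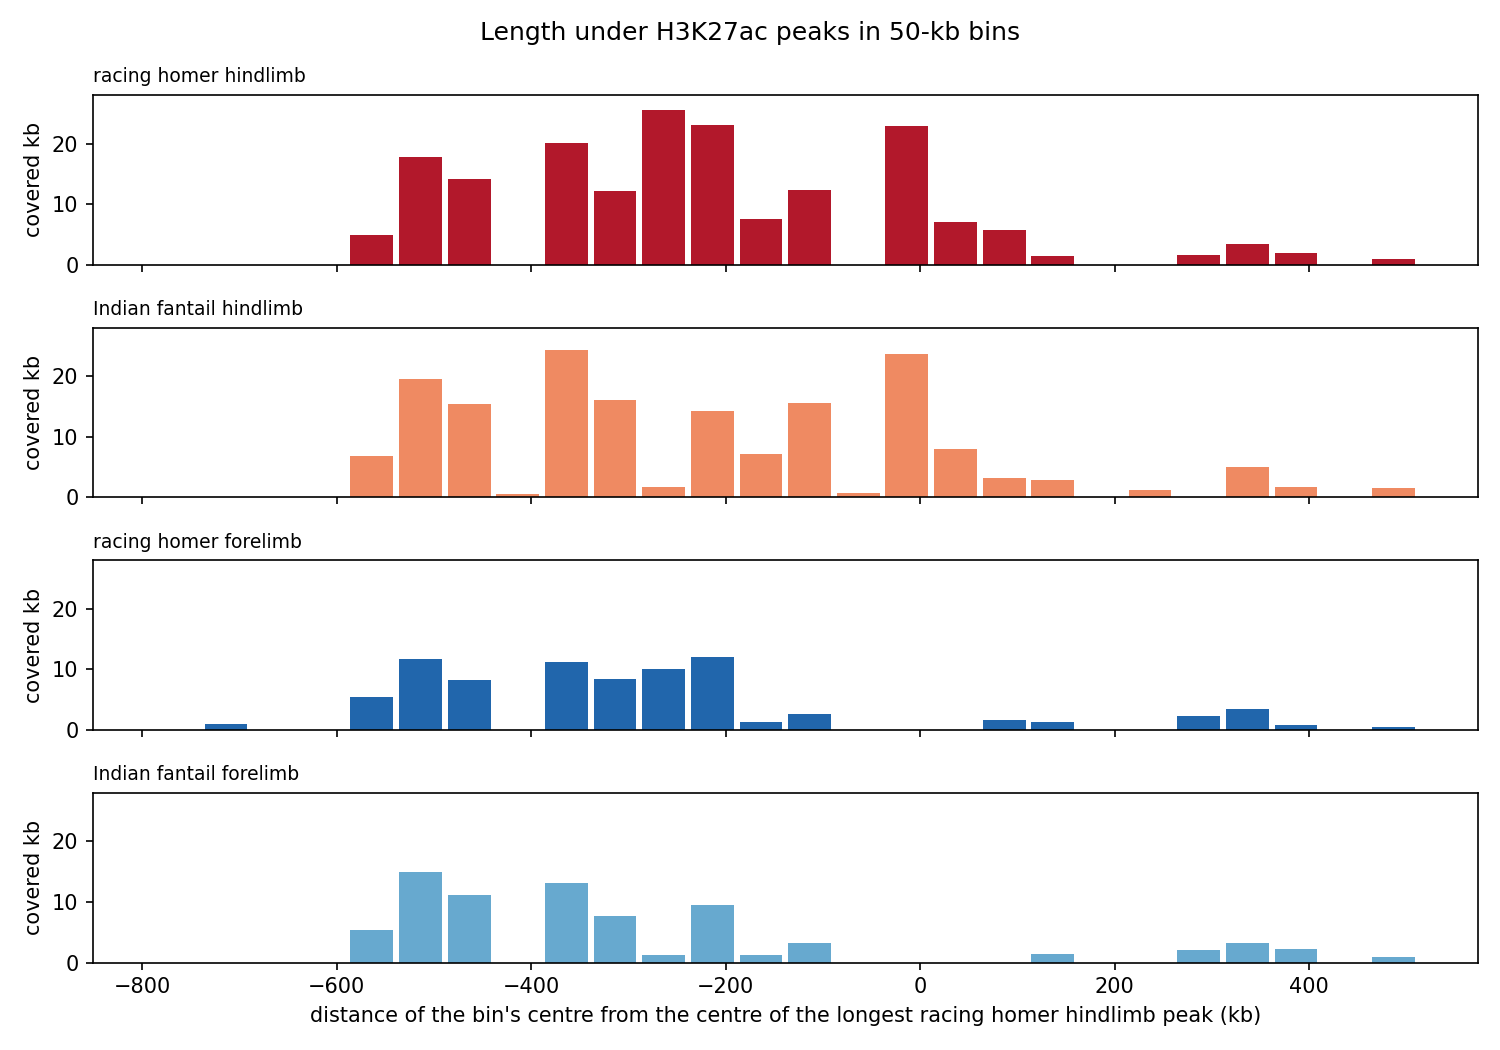
Length under peaks (kb) in each 50-kb bin of the locus, in 4 panels for the 4 lists, placed by the distance of the bin's centre from the centre of the longest racing homer hindlimb peak. The bin just left of 0 holds 22.9 kb in the racing homer hindlimb and 23.6 kb in the Indian fantail hindlimb and is empty in both forelimb lists.

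The bin with the largest difference between limbs, in either breed, was that at the *Pitx1* end of the window, from 6.95 to 7 Mb. Peaks covered 22.9 kb of it in the racing homer hindlimb, 23.6 kb in the Indian fantail hindlimb and 0 kb in both forelimbs. In each breed this difference ranked 4 among the 11352 bins over all scaffolds. The next bin, from 7 to 7.05 Mb, was covered over 6.99 kb in the racing homer hindlimb and 8.06 kb in the Indian fantail hindlimb, again with 0 kb in both forelimbs.

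A single broad peak made up most of this domain. In the racing homer hindlimb it spanned 20931 bp, and 8 of the 18821 peaks of that list, itself included, were at least as long. Among those 8 peaks, 2 overlapped no forelimb peak of either breed. The longest Indian fantail hindlimb peak spanned 18768 bp, and 22 of 22407 peaks were at least as long, of which 3 overlapped no forelimb peak. Over the whole lists, 32.0% of racing homer and 41.9% of Indian fantail hindlimb peaks overlapped no forelimb peak of their breed. The starts of the peaks in the breeds, at 6978327 and 6978330, differed by 3 bp, while the racing homer peak ended at 6999257 and the Indian fantail peak at 6997097, with a separate peak of score 309 behind it. Both peaks carry the score of 3100, which 85 peaks share in the racing homer hindlimb list and 169 in the Indian fantail hindlimb list. The score has no stated scale. With so many peaks at a single value, the shared score does not show that the peak is equally strong in the breeds. Scores of different lists are printed side by side below to identify the peaks, and no difference between lists is read from them. Of the peaks with this score, 3 racing homer and 5 Indian fantail peaks overlapped no forelimb peak of their breed. The shares over the whole lists were 32.0% and 41.9%, as given above. For comparison, hindlimb peaks without a forelimb counterpart had a median width of 1246 bp in the racing homer list and 1303 bp in the Indian fantail list.

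The forelimb lists had no peak over a wide stretch around this peak, which was singled out after its values were seen. From 6886485 to 7055948, over 169 kb, neither forelimb list has a peak. The racing homer hindlimb has 7 peaks wholly inside it and the Indian fantail hindlimb has 11. In each list 2 more peaks reach in from the edges, where they overlap forelimb peaks, by 475 bp in all in the racing homer and 739 bp for the Indian fantail. With these, hindlimb peaks cover 31.9 kb of the stretch in the racing homer and 33.9 kb for the Indian fantail. Among all stretches between neighbouring forelimb peaks on the scaffolds, 18167 for the racing homer and 18169 for the Indian fantail, both values ranked 3 in covered length. The highest values elsewhere were 49.4 kb for racing homer and 50.5 kb for Indian fantail hindlimbs.

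Smaller peaks accompany the broad peak in both breeds. On the lower side, the region from 6976093 to 6977502 scored 220 in the racing homer hindlimb, and its counterpart in the Indian fantail, which ends at the same base, scored 125. On the upper side, the region from 7002096 to 7004118 scored 525 in the racing homer, and the Indian fantail peak over it scored 741. The region next to it scored 375 and 251, racing homer first. Farther up, between 7019602 and 7022425, the racing homer hindlimb peak scored 148 and that of the Indian fantail scored 225. In none of these places does a forelimb list hold a peak. In the Indian fantail hindlimb alone, weak peaks from 6947449 to 6948245 and from 6952936 to 6954760, with scores of 51.3 and 113, lie between the last forelimb peak and the broad peak.

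**Figure D3:**
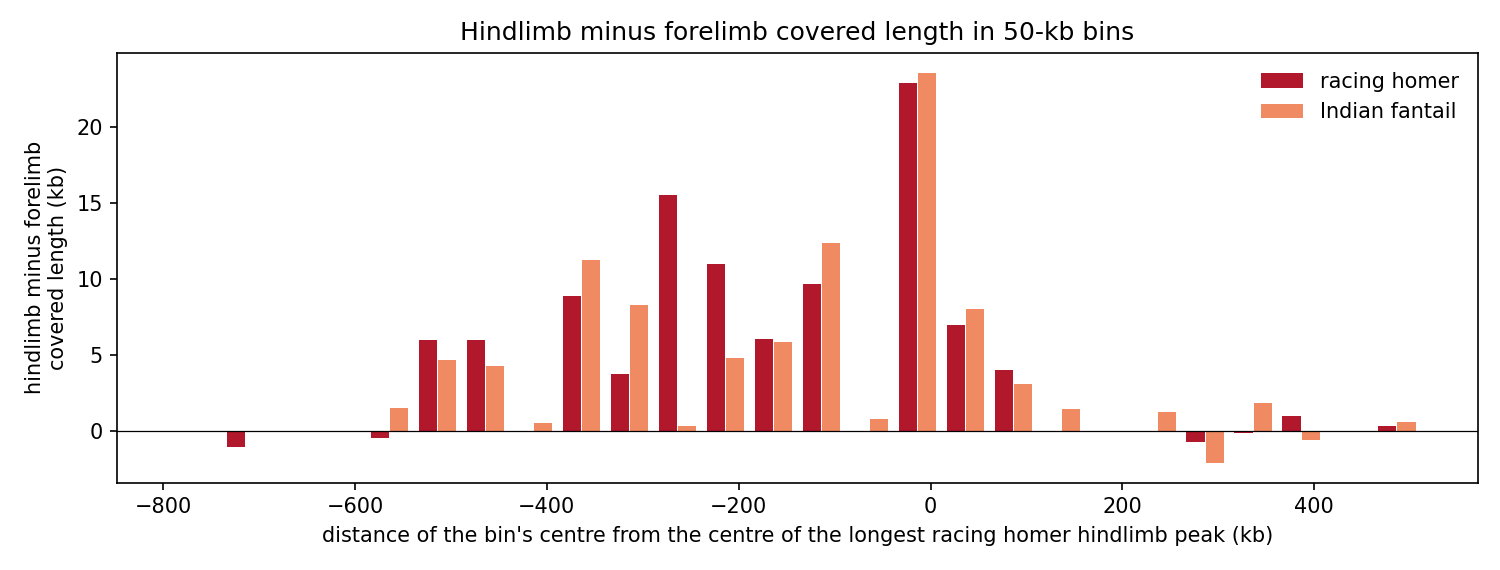
Hindlimb minus forelimb covered length (kb) in each 50-kb bin, for the racing homer (dark) and the Indian fantail (light), by distance from the centre of the longest racing homer hindlimb peak. Bars near 0 kb reach 22.9 and 23.6 kb, and the racing homer bar of 15.5 kb in the stretch without Indian fantail peaks stands beside an Indian fantail bar of 0.336 kb.

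Between the deletion and the *Pitx1* domain, both limbs were acetylated, and the hindlimb more widely. The highest-scoring region there lies from 6787351 to 6795963 and has peaks in all 4 lists, covering 7.05 kb in the racing homer hindlimb, 6.89 kb in the racing homer forelimb, 8.61 kb in the Indian fantail hindlimb and 7.07 kb in the Indian fantail forelimb. Its forelimb peaks at 6787524 (racing homer) and 6787555 (Indian fantail), with scores of 565 and 508, were the second-highest of their lists in the locus. Here the limbs of the racing homer were within 1 kb of each other, unlike in the bins that follow. From 6.8 to 6.85 Mb, the covered length was 7.49 kb in the racing homer hindlimb and 1.39 kb in the forelimb, and 7.19 kb against 1.31 kb in the Indian fantail. From 6.85 to 6.9 Mb, it was 12.3 kb against 2.57 kb in the racing homer and 15.6 kb against 3.21 kb in the Indian fantail. The latter differences ranked 29 and 40 among all bins.

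Single peaks in these bins differed between the breeds in the forelimb. The racing homer hindlimb peak at 6832805 to 6837402, which scored 449, has no racing homer forelimb peak over it. The same place in the Indian fantail has a hindlimb peak of 4.31 kb and a forelimb peak of 1.31 kb, the latter with a score of 74.8. The region from 6881269 to 6887214 has the same pattern. It had 5.11 kb in the racing homer hindlimb, 0 kb in its forelimb, 5.95 kb in the Indian fantail hindlimb and 3.21 kb in its forelimb. The Indian fantail forelimb peak there scored 161, above the median score of its list, 119. The opposite pattern, with a forelimb peak in the racing homer and none in the Indian fantail, was seen in the regions that start at 6820523, 6851164 and 6869553. The racing homer forelimb peaks there have scores of 51.2, 60.9 and 81.1, not far above the lowest score of that list, 50.0. Whether such weak peaks lie just inside one list and just outside the other was not tested.

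Most of the difference between the limbs lay within the window from 6.7 to 7 Mb. In the racing homer, 65.3 kb of the difference of 100.0 kb lay in the window (65.2%), 23.1 kb in the lower flank and 11.6 kb in the upper flank. In the Indian fantail, 47.8 kb of 92.2 kb lay in the window (51.9%), 30.7 kb in the lower flank and 13.7 kb in the upper flank. Without the stretch that has no Indian fantail peak, described below, the racing homer difference in the window was 39.5 kb, or 53.2% of the rest of the locus.

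In the lower flank, from 6.2 to 6.7 Mb, overlapping peaks of the lists merged into 24 regions. Of these, 12 had a peak in all 4 lists (50.0%), against 36.7% of all regions on all scaffolds. In the window 4 of 26 regions did (15.4%), and in the upper flank 6 of 21 (28.6%). Peaks covered 69.2 kb of this flank in the racing homer hindlimb and 46.1 kb in its forelimb, a ratio above the 1.22 over all scaffolds, and 82.8 kb and 52.2 kb in the Indian fantail, a ratio of 1.59 against 1.46. The widest of the 12 shared regions of the lower flank, from 6491436 to 6505455, contains the longest forelimb peaks of the locus. It was covered over 11767 bp in the racing homer hindlimb, 11009 bp in the racing homer forelimb, 13.6 kb in the Indian fantail hindlimb and 13.4 kb in the Indian fantail forelimb. Its highest scores were 706 and 507 in the racing homer lists, and 2342 and 610 in the Indian fantail lists, hindlimb first. A second Indian fantail hindlimb peak there, at 6491685, scored 1730. The score of 2342 was equalled or passed by 1.33% of the Indian fantail hindlimb peaks, and the score of 706 by 7.06% of the racing homer hindlimb peaks. A second strong region, from 6620560 to 6633334, was covered over 9.62 kb in the racing homer hindlimb, 8.75 kb in its forelimb, 12.7 kb in the Indian fantail hindlimb and 7.86 kb in its forelimb. It holds the highest-scoring racing homer forelimb peak of the locus, with a score of 718, and an Indian fantail forelimb peak of 4914 bp at 6626396. The longest Indian fantail forelimb peak after that at 6493032 lies from 6519432 to 6525752, over 6321 bp, and is overlapped by an Indian fantail hindlimb peak of 8266 bp that starts at 6517428. At 6432190 to 6434723 the racing homer hindlimb has a peak too, and the forelimb peaks over it were the third-highest of their lists in the locus, with scores of 545 in the racing homer and 480 for the Indian fantail. From 6607847 to 6613768, by contrast, the hindlimbs were covered over 5.83 kb and 4.84 kb, in racing homer and Indian fantail, and the forelimbs over 0 and 1.53 kb. The bin from 6.65 to 6.7 Mb was called higher in the Indian fantail hindlimb, with 16.0 kb against 7.76 kb. This difference ranked 222 among all bins. The longest Indian fantail hindlimb peak there spans 4663 bp from 6673097. The bin held 12.2 kb in the racing homer hindlimb and 8.43 kb in its forelimb and was not called there.

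The upper flank, from 7 to 7.5 Mb, held little acetylation beyond the edge of the *Pitx1* domain. Peaks covered 21.9 kb of it in the racing homer hindlimb, 10.3 kb in the racing homer forelimb, 23.6 kb in the Indian fantail hindlimb and 9.89 kb in the Indian fantail forelimb. From 7.1 Mb upward, no bin was covered over more than 5.01 kb in any list. In the bin from 7.3 to 7.35 Mb, the covered length was 3.38 kb in the racing homer hindlimb, 3.50 kb in its forelimb, 5.01 kb in the Indian fantail hindlimb and 3.18 kb in its forelimb.

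The few forelimb peaks with no hindlimb peak of their breed over them were mostly weak. Those of the racing homer start at 6275865, 6444524, 6655024 and 6779595, and they scored 55.8, 55.3, 55.8 and 62.2. The last of them lies over an Indian fantail hindlimb peak of score 54.1, and the third over peaks of both Indian fantail lists. The only such Indian fantail forelimb peak lies from 7296684 to 7298769 and scored 146, and the racing homer has peaks in both limbs over it, with scores of 82.9 in the hindlimb and 141 in the forelimb. This was the only region of the locus with a peak in all lists but the Indian fantail hindlimb. Regions of this kind made up 1.41% of the merged regions of the locus, close to the 1.02% over all scaffolds.

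**Figure D4:**
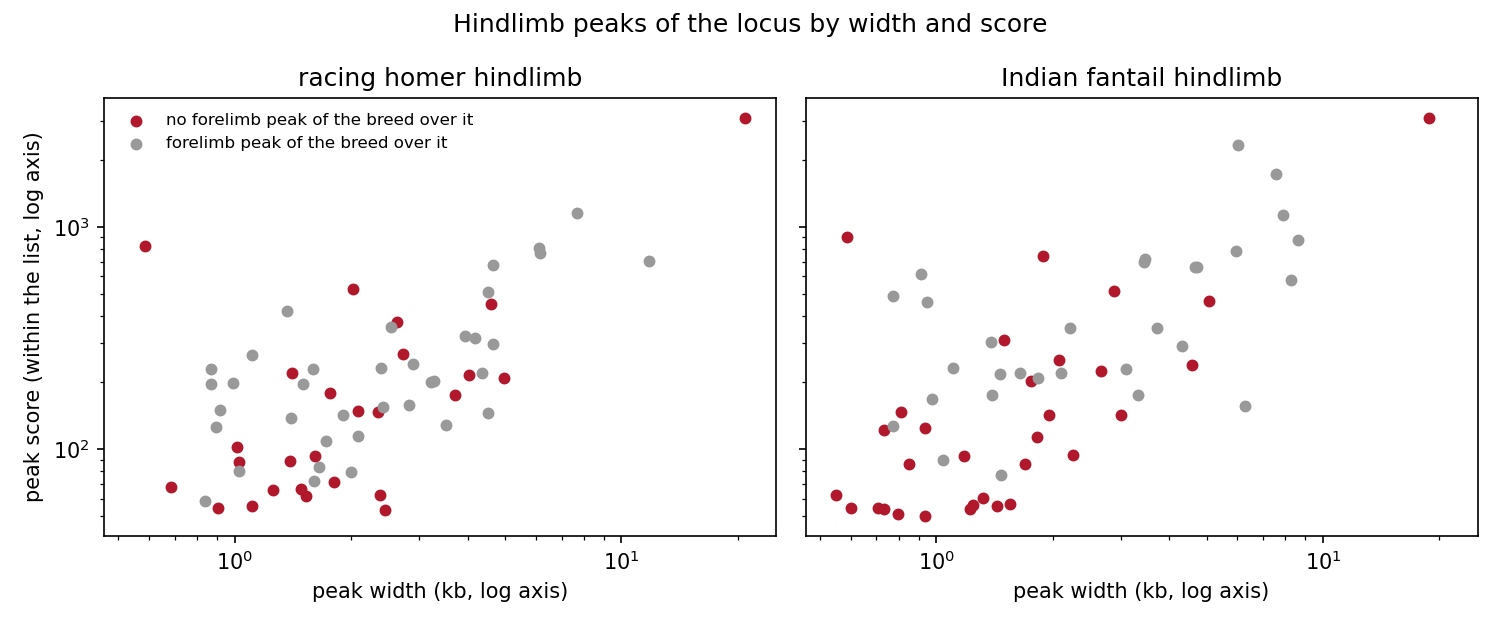
Hindlimb peaks of the locus by width (kb) and score, both on log axes, for the racing homer (left) and the Indian fantail (right); red points have no forelimb peak of the same breed over them and grey points have one. The widest peak in each panel, 20.9 kb and 18.8 kb, is red, while the next widest are grey in both panels.

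The breeds were compared next, limb by limb. The largest difference between them was a stretch of 49.1 kb, from 6718944 to 6768014, in which neither Indian fantail list has a peak. It was found as the gap between neighbouring Indian fantail peaks of the window that holds the greatest racing homer hindlimb covered length, so its emptiness in the Indian fantail was set by the choice. The racing homer hindlimb has 9 peaks wholly inside it and 1 more that reaches in by 527 bp across the upper edge, and together they cover 35.8 kb or 73.0% of the stretch, and the racing homer forelimb has 4 peaks, which cover 10.1 kb or 20.6%. The study describes a deletion in this part of the window in the Indian fantail. Deleted sequence can hold no peak, so the lack of peaks there is no measure of acetylation. The bounds of the deletion were not set against those of the stretch here. Its bin from 6.7 to 6.75 Mb was covered over 25.5 kb in the racing homer hindlimb and 1.64 kb in the Indian fantail hindlimb. It was the only bin of the locus called higher in the racing homer, in the hindlimb, with 0.115% of all bins so called, and in the forelimb, with 0.132%. Left without this stretch, the locus had 0 such bins in either limb. Bins called higher in the Indian fantail also numbered 0 in both limbs, with 1.18% of all bins so called in the hindlimb and 0.132% in the forelimb.

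Within the racing homer, the hindlimb covered 3.55 times as much of the stretch as the forelimb, and 3.72 times as much from its end to 7 Mb. Since the stretch was chosen for its hindlimb covered length, the first ratio was favoured by the choice and is a description only. The hindlimb peak at 6744521 to 6752202 scored 1162 and had the second-highest score of the racing homer hindlimb in the locus, after the broad peak near *Pitx1*. A forelimb peak of 5247 bp lies inside it, with a score of 456. The other high peak, from 6721947 to 6728120, has a score of 763 in the hindlimb and contains a forelimb peak of 2721 bp with a score of 276. Of the 9 hindlimb peaks wholly inside the stretch, 5 have no forelimb peak over them, where 32.0% of the whole racing homer hindlimb list have none. The same choice bears on this count, which is also a description only.

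Peaks of both breeds and both limbs lay at the edges of the stretch. Since the stretch is a gap between neighbouring Indian fantail peaks, an Indian fantail peak at each edge was set by the choice. Just below it, from 6717303 to 6718943, all 4 lists have a peak, with scores of 198 in the racing homer hindlimb, 114 in its forelimb, 221 in the Indian fantail hindlimb and 74.4 in its forelimb. Across and above its upper edge, from 6767488 to 6769395, all 4 lists again have a peak, with scores of 143, 81.8, 303 and 53.3 in the same order.

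Outside the stretch, the Indian fantail hindlimb was not less covered than the racing homer hindlimb. It covered 169 kb against 147 kb of the rest of the locus, 1.16 times as much, where over all scaffolds it covered 1.26 times as much. In the window without the stretch the ratio was 1.14, in the lower flank 1.20 and in the upper flank 1.07. For the forelimbs, the Indian fantail covered 1.07 times as much as the racing homer outside the stretch and 1.05 times over all scaffolds. At the broad peak near *Pitx1*, peaks covered 20.9 kb of the merged region in the racing homer hindlimb and 20.3 kb in the Indian fantail hindlimb. With 1 list per breed and limb, the spread to expect between such values is unknown.

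Of the 63 racing homer hindlimb peaks, 13 overlapped no Indian fantail hindlimb peak (20.6%, 12.5–32.2%), against 13.7% of the whole list, and 9 of the 13 lie wholly inside the stretch. Of the 53 peaks that do not touch it, 4 had no counterpart (7.55%, 2.97–17.9%). Of the 61 Indian fantail hindlimb peaks, 12 overlapped no racing homer hindlimb peak (19.7%, 11.6–31.3%), against 30.0%. For the forelimbs, the numbers were 15 of 43 in the racing homer (34.9%, 22.4–49.8%), against 24.5%, and 6 of 33 in the Indian fantail (18.2%, 8.61–34.4%), against 21.7%. In each case the share over the whole list lay inside the interval.

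When overlapping peaks of the 4 lists were merged, the locus held 71 regions, against 26452 over all scaffolds. Of these, 22 had a peak in all 4 lists (31.0%, against 36.7% of all regions) and 11 had one in both hindlimb lists and neither forelimb list (15.5%, against 9.31%). Of the 11 hindlimb regions, 3 lie in the lower flank, 3 in the window and 5 in the upper flank, and together they hold 36.3 kb of racing homer and 35.1 kb of Indian fantail hindlimb peaks. Regions that nearly touch were not joined, so the 11 are not independent. Those that start at 6976093, 6977561 and 6978327 lie side by side at the broad peak, and so do those at 7002096 and 7004127 just above it. The mirrored pattern, both forelimb lists and neither hindlimb list, was found in 0 regions, where 1.77% of all regions have it. Of the hindlimb regions, those not yet named start at 6459282, 6649452, 6684013, 7050378 and 7073255, with racing homer scores of 149, 65.5, 54.7, 66.2 and 67.5. Their Indian fantail scores, in the same order, were 56.86, 60.55, 94.24, 53.68 and 85.86. The lowest score in each hindlimb list is 50.0. A further 10 regions had a peak in the Indian fantail hindlimb alone (14.1%, against 16.7%), with scores between 50.3 and 113 and a median of 56.0, where the lowest score of that list is 50.0. The racing homer hindlimb alone had a peak in 8 regions (11.3%, against 6.41%), of which 3 lie outside the stretch, with scores between 55.4 and 87.9.

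Within the 22 regions shared by all lists, the hindlimb covered more than the forelimb in most, as it did over all scaffolds. The racing homer hindlimb covered more than its forelimb in 17 of 22 (77.3%), with a median ratio of 1.10 and a range from 0.819 to 3.03. For the Indian fantail this was so in 18 of 22 (81.8%), with a median of 1.25 and a range from 0.902 to 2.41. Over the 9716 regions shared by all lists on all scaffolds, the medians were 1.08 and 1.12, and the hindlimb covered more in 67.4% and 73.7% of them. In sum, the peaks of the 22 regions came to 71.9 kb in the racing homer hindlimb and 56.2 kb in its forelimb, and to 85.7 kb and 65.6 kb in the Indian fantail.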

How the data were processed

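H3K27ac ChIP-seq of limb buds at HH25 gave 16 libraries, 8 ChIP and 8 input, of which 2 ChIP replicates per breed and limb stand behind each of 4 peak lists. The submitters' processing notes name CASAVA, Bowtie2 2.2.3, SAMtools, MACS 1.4.2 and MACS2 2.0.10.20130915, without their roles; the genome build, the use of the inputs and how replicates were combined are not given in the sources used here. The authors deposited a score per peak, of unstated scale, which was used to rank peaks within a list; scores printed side by side for different lists are descriptions. Their 2 tables of regions and log10 likelihood ratios for Indian fantail against racing homer hindlimbs hold their own comparison and were not used, nor were expression values.

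Positions are 1-based. Covered length is the number of bases under at least 1 peak. An overlap of 1 bp made peaks shared. The 50-kb bins start at multiples of 50 kb, and a bin was called at a ratio of at least 2 and a difference of at least 5 kb. The background is every bin with a peak in any list, on all scaffolds. The lists hold no value per replicate, so no test was run. Depth is unknown; Wilson intervals (95%) show counting error alone and treat neighbouring peaks as independent.

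Genes named were *Pitx1*, *H2afy*, *Smad5* and *Tgfbi*. Peaks named were the 3 highest-scoring and 3 longest of each list in the locus, the longest hindlimb peak of each called bin, those of both hindlimbs without a forelimb peak, and forelimb peaks without a hindlimb peak; other peaks, and the stretch without forelimb peaks, were chosen after their values were seen. The locus and lists were chosen with earlier results of these data known. Alternatives were an overlap of 50% of both peaks, scores at or above the list median, lists of equal size, merging within 1 kb, bins shifted by 25 kb, a ratio of 1.5, a difference of 2 kb, and leaving out the stretch without Indian fantail peaks. Python 3.11.15 with numpy 2.4.6, scipy 1.17.1 and matplotlib 3.10.9 was used; on simulated data, 14 of 14 checks recovered the planted result.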

Additional observations from a re-analysis of the deposited data

How the results depend on the processing

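Of 136 values of 32 results under an alternative, 114 stayed within 1.5 times the reported value (for shares, within its interval), 22 moved further and 0 reversed. With scores at or above the list median, 22 racing homer forelimb, 40 Indian fantail hindlimb and 17 Indian fantail forelimb peaks remained in the count for the locus, 1 bin was called higher in the Indian fantail than in the racing homer hindlimb, the share of racing homer hindlimb peaks without the forelimb was 55.8%, and hindlimb minus forelimb covered length in the upper flank was 7.53 kb in the racing homer and 8.86 kb in the Indian fantail. With lists of equal size the last value was 8.10 kb, and the Indian fantail hindlimb shares without the other limb and without the other breed were 38.3% and 8.51%. An overlap of 50% of both peaks gave shares without the other limb of 55.6% and 34.9% in the racing homer hindlimb and forelimb. It gave 27.3% in the Indian fantail forelimb. Merging within 1 kb gave 27.9% in the racing homer hindlimb. No share over the whole lists was computed under any alternative, so these shares cannot be set against the whole-list shares given above. A ratio of 1.5 called 9 racing homer bins higher in the hindlimb and 2 hindlimb bins higher in the racing homer. Bins shifted by 25 kb left 2 Indian fantail bins higher in the hindlimb, and a difference of 2 kb called 1 Indian fantail bin higher in the forelimb. The share of all bins called was not computed under any alternative. Without the stretch that lacks Indian fantail peaks, 0 bins were called higher in the racing homer in either limb, the racing homer hindlimb share without the other breed was 7.41% (4 of 54, here with the part of the peak beyond the upper edge kept), and the racing homer difference in the window was 39.5 kb. Apart from the last setting, which removes those peaks, the cause was not tested. No paired analysis was possible because each list combines its replicates, which also kept replicates from being left out in turn. Depth is unknown, so a site with no peak may still carry the mark.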

Other observations

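Just below the broad peak near *Pitx1*, both hindlimb lists hold a short peak with a high score. In the racing homer it spans 586 bp from 6977565 to 6978150, with a score of 822, and in the Indian fantail 588 bp from 6977561 to 6978148, with a score of 903. Of the 492 racing homer hindlimb peaks that are as short or shorter, 3 (itself included) have at least this score, and the median of those short peaks is 77.0. Of the 568 such Indian fantail peaks, 5 do, with a median of 78.8. The short peak is separated from the broad peak by 176 bp in the racing homer and 181 bp in the Indian fantail, and its edges differ by 4 and 2 bp between the breeds. On its other side, a peak ends at 6977502 in both lists. Merging within 1 kb joined these peaks into 1 of 23.2 kb in the racing homer and 22.9 kb in the Indian fantail. The short peak can thus be a piece of a single domain, and its rank among short peaks depends on where peaks were split.

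The locus also holds long spans with no peak in any list. The longest runs from 6276906 to 6425114 over 148 kb, the next from 7352590 to 7487505 over 135 kb. Of the 25615 spans between neighbouring merged peaks on all scaffolds, 5.08% are at least as long as the first and 5.68% as the second. The acetylated part of the locus lies between 6.4 and 7.15 Mb in all 4 lists, apart from 1 weak racing homer forelimb peak below it and small peaks from 7.2 Mb upward.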
